A study of Mus musculus with 20 samples.

Results

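The Ifi200 cluster genes are mouse genes of the p200 family, also called PYHIN genes, that lie side by side on the distal part of chromosome 1. The 10 genes described here, Ifi203, Ifi204, Ifi205, Ifi206, Ifi207, Ifi209, Ifi211, Ifi213, Mndal and Aim2, were chosen by symbol as members of that family, with earlier results of these data known, and they are 10 of the 39017 genes in the deposited table. There, 5 of them stand under their present symbol and 5 under an older one: Gm4955 for Ifi206, AI607873 for Ifi207, Pyhin1 for Ifi209, Mnda for Ifi211 and Pydc4 for Ifi213.

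The data are RNA sequencing counts from microglia and astrocytes, each sorted from the left forebrain of male C57BL/6J mice aged 3 to 4 months. The mice had either a lateral fluid percussion injury (FPI), in which a pulse of fluid strikes the dura through an opening in the left parietal bone, or a sham procedure with the same surgery and no pulse, and were killed 7 days later. Microglia were sorted as CD11b+ cells with intermediate CD45, and astrocytes by the surface antigen ACSA2. There were 4 groups of 5 libraries, sham microglia, FPI microglia, sham astrocytes and FPI astrocytes, with no pooling of animals. The median library of sham microglia had 8188128 counts in total (range 5623349 to 13110857), and that of FPI microglia had 8054415 (6890710 to 8396868). For sham astrocytes the median was 9300923 (7998479 to 10917112), and for FPI astrocytes it was 7878739 (6470553 to 10194999).

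Most p200 proteins pair an amino-terminal pyrin domain, which binds other pyrin domains, with a carboxy-terminal HIN-200 domain, which binds double-stranded DNA without regard to its sequence. The best known member, AIM2, senses DNA in the cytosol and gathers the adaptor ASC and caspase-1 into an inflammasome that matures interleukin-1 beta and interleukin-18, while others act mostly in the nucleus or feed into the STING pathway. Interferons raise the transcription of many p200 genes, and the family has expanded by tandem duplication in the mouse, so several members are close copies of one another.

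By group means, the sorted populations carried the markers of their labels. The summed level of 11 microglia markers was 27586 ± 2568 in counts-per-million (CPM; mean ± SD, n = 5) in sham microglia and 132 ± 29.9 CPM in sham astrocytes. The summed level of 9 astrocyte markers was 22272 ± 8727 CPM in sham astrocytes and 318 ± 54.4 CPM in sham microglia. The astrocyte libraries also held 6 oligodendrocyte markers at 7323 ± 5948 CPM in sham and 7731 ± 3148 CPM in FPI. In sham astrocyte replicate 4 the oligodendrocyte markers, at 16856 CPM, exceeded the astrocyte markers, at 10408 CPM. Here and throughout, CPM are on the scale of trimmed mean of M values (TMM) factors computed within each cell type. All levels describe RNA per library, in which fewer cells of a type and less RNA per cell cannot be told apart.

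Some library names bear on the results. Of the 10 microglia libraries, 6 are named with the suffix M (replicates 1 to 3 of each group) and 4 with the suffix J-A (replicates 4 and 5), so each name series holds sham and FPI animals. The labels do not say what the suffixes mean. In 3 animals a microglia and an astrocyte library carry the same animal number. FPI astrocyte replicate 5 has a name with the animal number of FPI astrocyte replicate 2 and the suffix of the microglia libraries. It was kept where its title places it, and its microglia markers summed to 236 CPM, close to the 230.5 CPM of replicate 2.

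On the GRCm38.p6 assembly the members span chr1:173350879-174031810, a stretch of 680.9 kb, with Aim2 at the proximal end and Ifi205 at the distal end. The annotation places 15 genes of the table in or across that span, the 10 members and 5 others that were not chosen: Cadm3, which crosses its proximal end, Ifi208, Ifi214, Ifi203-ps and Ifi202b. Ifi202b, whose protein lacks a pyrin domain and holds AIM2 back, had 0 counts in all 20 libraries. Of 29 genes within 500 kb on either side, 4 had any count. Mndal and Ifi203 lie on the same strand and share 37 exonic bases.

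The members' promoters were searched to see what these genes share besides the family they were chosen by. RefSeq gives promoter windows of 300 bases, 250 before and 50 after a start, for 9 of the 10 members, 11 windows in all. Ifi204 has no entry. The core of the interferon-stimulated response element, GAAANNGAA on either strand, occurred in 7 of the 9 members and in 8 of the 11 windows, beside 8.56% of all 32851 mouse promoters (2812). The core of the gamma-activated site, TTCNNNGAA on either strand, occurred in 0 of the 9 members, beside 8.3% of all promoters (2726). Outside the members, the windows of the neighbours Ifi214 and Ifi208 also held the interferon-stimulated core. That of Ifi202b did not, but it held the gamma-activated core. For each of the 7 genes 1 match is printed, 5′ to 3′ along the gene's own strand, 30 bases each, with the 9-base core in capitals, followed by the stretch of the Ifi209 promoter most like that of Ifi206. They are shown because the windows are much alike around the core.
Ifi206: tgtctctgagGAAATCGAAagctatgaacc
Ifi213: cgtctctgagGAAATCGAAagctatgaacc
Mndal: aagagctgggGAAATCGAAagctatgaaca
Ifi203: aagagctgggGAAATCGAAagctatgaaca
Ifi211: caaagccaggGAAATTGAAagctatgaacg
Ifi205: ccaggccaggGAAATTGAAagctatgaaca
Ifi207: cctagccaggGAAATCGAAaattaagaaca
Ifi209: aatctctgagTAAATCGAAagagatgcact

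The stretches lie at chr1:173491339-173491368 (Ifi206), chr1:173599326-173599355 (Ifi213), chr1:173880204-173880233 (Mndal), chr1:173942508-173942537 (Ifi203), chr1:173913064-173913093 (Ifi211), chr1:174031870-174031899 (Ifi205) and chr1:173741831-173741860 (Ifi207), all on the minus strand, and at chr1:173630770-173630799 on the plus strand for Ifi209. The stretch of Ifi213 is identical to that of Ifi206 at 29 of 30 bases, those of Mndal and Ifi203 at 23, those of Ifi211 and Ifi205 at 20, and that of Ifi207 at 19. Mndal and Ifi203 have the same 30 bases. The stretch of Ifi209 matches Ifi206 at 23 of 30 bases but misses the motif by G1T, counted from 1 at the 5′ end of the core with the base of Ifi206 first. The Aim2 window also held no match, and neither did the other of the 2 windows of Ifi203. A match describes the letters of the window and no more.

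Because reads from near-identical exons can be counted for the wrong gene, the annotated transcripts were compared. Of the 75-base windows of Ifi211 transcripts, 63.6% also occurred in transcripts of another gene, 695 of them in Ifi205. For Ifi209 the share was 23.1%, all with Ifi214, and for Ifi206 it was 17.6%, most often with Ifi208. The shares were 16.6% for Ifi205, 13.2% for Ifi204, 11.1% for Mndal, 8.07% for Ifi213, 5.71% for Ifi203 and 2.8% for Ifi207, and Aim2 shared no window with any gene. With 150-base windows, the length of a read, Ifi211 still shared 46.4%, Ifi205 12.6%, Ifi209 9.28% and Ifi204 6.77%. The part of exchanged reads in the members' counts was not tested, and the settings used for reads with several alignments are not stated.

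**Figure D1:**
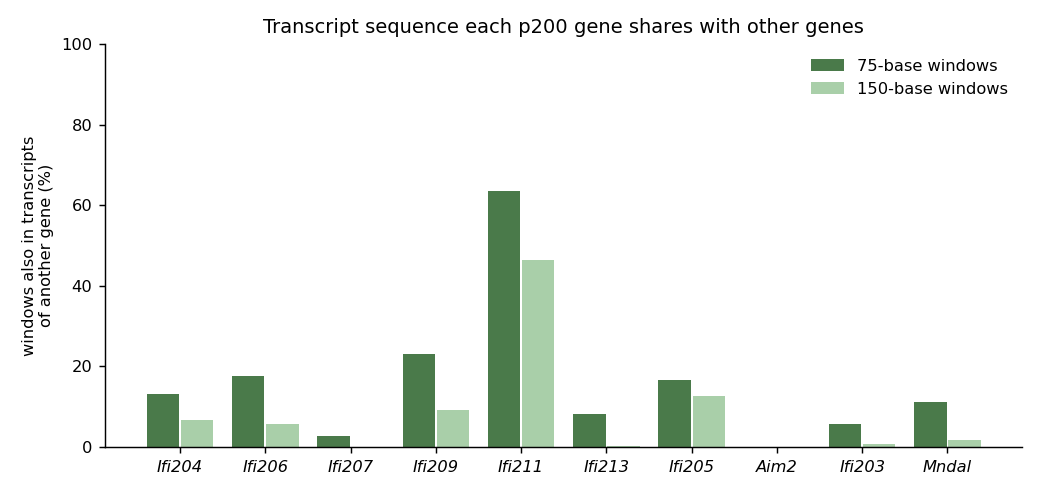
Share of the 75-base (dark) and 150-base (light) windows of each member's transcripts that also occur in transcripts of another gene, in percent. Ifi211 stands highest at 63.6% and 46.4%, and Aim2 has no shared window.

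The comparison of FPI with sham microglia asks which genes had changed in these cells a week after injury. It was made with edgeR's quasi-likelihood test over 12143 genes, with Benjamini-Hochberg adjustment over all of them, and calls needed both an adjusted p under 0.1 and a log2 fold change of more than 0.6 in either direction. In all, 285 genes were called, 259 higher and 26 lower after FPI. The total was 177 without sham microglia replicate 2 and 177 without FPI microglia replicate 2. Of the 10 members 9 passed the filter on low counts, Ifi205 being the exception, and 6 were called, all of them higher after FPI: Ifi204, Ifi206, Ifi207, Ifi209, Ifi211 and Ifi213. Among all tested genes 2.13% were called higher. DESeq2 also called 6 members. The same 6 of the 9 tested members had all 5 FPI libraries above all 5 sham libraries, beside 2.11% of all tested genes. That separation rests on the same counts as the calls and adds no independent test. The median log2 fold change of the 9 tested members was 2.20, beside -0.0094 over all tested genes.

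**Figure D2:**
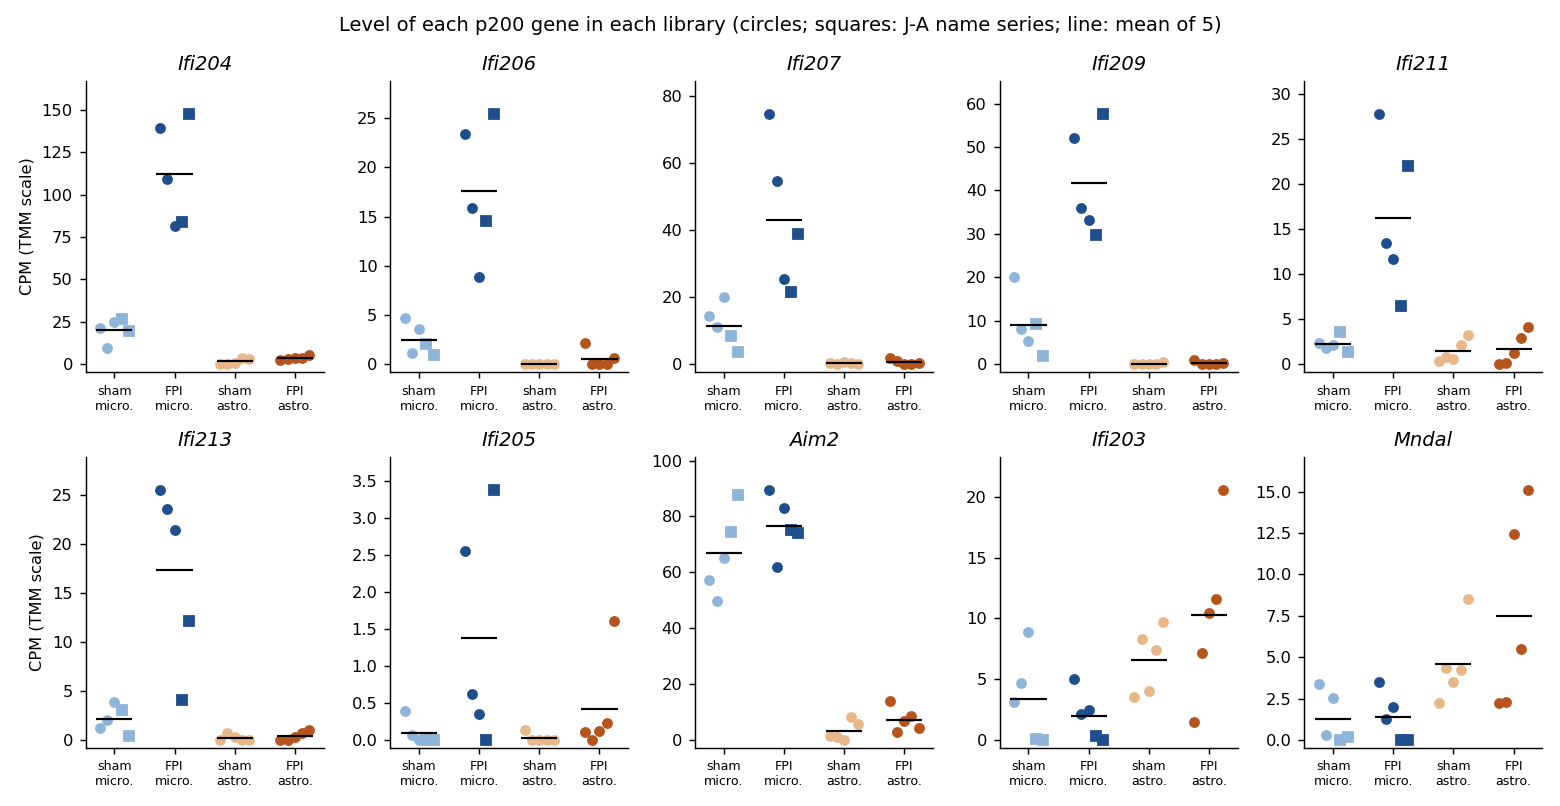
CPM of each of the 10 members in each library (points) of the 4 groups, with the mean of 5 as a line and the J-A microglia libraries as squares; each panel has its own vertical scale. In FPI microglia Ifi204 lies between 81.8 and 147 CPM against 9.55 to 26.8 CPM in sham, while Aim2 overlaps between these groups.

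Ifi204 encodes p204, a nuclear and cytoplasmic protein that binds DNA, signals through STING and also takes part in the differentiation of several cell types. It stood at 21.3, 9.55, 24.8, 26.8 and 19.4 CPM in sham microglia replicates 1 to 5. In FPI microglia replicates 1 to 5 it stood at 139, 109, 81.8, 84.2 and 147 CPM. The FPI libraries all lay far above the highest sham library, and the highest of them, replicates 1 and 5, come from different name series. The log2 fold change was 2.47 (SE 0.24, adjusted p 1.47e-05, higher in 5 of 5 FPI libraries), a 5.54-fold difference and the gene of rank 2 by p among the 12143. It was 2.58 in the M libraries alone and 2.32 in the J-A libraries alone.

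Ifi206 and Ifi213 share 29 of the 30 bases of their promoter stretches, and their individual functions are little described. Ifi206 stood at 4.66, 1.13, 3.54, 2.01 and 0.972 CPM in sham microglia and at 23.4, 15.9, 8.83, 14.6 and 25.4 CPM in FPI microglia. Its log2 fold change was 2.83 (SE 0.42, adjusted p 0.000598, higher in 5 of 5 FPI libraries). In both groups the libraries varied widely among themselves, without overlap between groups. Ifi213 stood at 1.16, 2.05, 3.88, 3.02 and 0.389 CPM in sham microglia and at 25.5, 23.6, 21.4, 4.07 and 12.1 CPM in FPI microglia. Its log2 fold change was 3.00 (SE 0.50, adjusted p 0.00174, higher in 5 of 5 FPI libraries). The groups of Ifi213 came close to touching, since FPI replicate 4, at 4.07 CPM, lay just above sham replicate 3, at 3.88 CPM, and the FPI libraries of the M series were the 3 highest.

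IFI207 has been linked to cytokine transcription in macrophages and to STING signalling. Its gene stood at 14.4, 11.2, 20.1, 8.27 and 3.69 CPM in sham microglia and at 74.6, 54.7, 25.4, 21.6 and 38.9 CPM in FPI microglia. The log2 fold change was 1.89 (SE 0.36, adjusted p 0.00619, higher in 5 of 5 FPI libraries). Of the 6 called members it had the smallest change. FPI replicate 4 lay just above sham replicate 3, and the mean was lower in the J-A libraries than in the M libraries of each group.

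Ifi209 stood at 20.2, 8.21, 5.37, 9.16 and 1.94 CPM in sham microglia and at 52.1, 36.1, 33.2, 29.7 and 57.5 CPM in FPI microglia. Its log2 fold change was 2.20 (SE 0.38, adjusted p 0.00211, higher in 5 of 5 FPI libraries). Sham replicate 1 was far above the other sham libraries and still below every FPI library. Ifi211 stood at 2.33, 1.77, 2.17, 3.58 and 1.36 CPM in sham microglia and at 27.7, 13.4, 11.7, 6.42 and 22.0 CPM in FPI microglia. Its log2 fold change was 2.84 (SE 0.40, adjusted p 0.000400, higher in 5 of 5 FPI libraries). The sham libraries of Ifi211 lay close together and the FPI libraries were widely spread, and the gene shares much of its transcript with Ifi205.

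Within the M libraries alone (3 sham, 3 FPI) the same 6 members were called, beside 2.15% of 12351 genes called higher. Within the J-A libraries alone (2 sham, 2 FPI) 4 were called, beside 0.798% of 12151 genes. There Ifi211 and Ifi213 were higher by a log2 fold change of 2.47 and 2.17 and not called. With all 20 libraries fitted together, so that 1 spread is shared by the cell types, Ifi204 was called and the other 5 were not, beside 0.657% of 15077 genes called higher. The fold changes of the 5 stayed between 1.87 and 3.00 on the log2 scale in that fit.

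Aim2, the inflammasome sensor, did not follow these genes. It stood at 57.2, 49.9, 65.1, 74.4 and 87.7 CPM in sham microglia and at 89.4, 62.1, 83.0, 74.96 and 74.0 CPM in FPI microglia. Its log2 fold change was 0.20 (SE 0.16, adjusted p 0.738), with 4 of 5 FPI libraries above the sham median. The groups overlapped over most of their range. In the M libraries alone the log2 fold change was 0.43 and in the J-A libraries alone it was -0.11, so the direction was not the same in both series.

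Ifi203 and Mndal encode p200 proteins whose roles in brain cells are not settled. Ifi203 stood at 3.10, 4.67, 8.91, 0.112 and 0 CPM in sham microglia and at 4.98, 2.11, 2.47, 0.313 and 0 CPM in FPI microglia. The log2 fold change of Ifi203 was -0.77 (SE 1.00, adjusted p 0.871), with 1 of 5 FPI libraries above the sham median. It was -0.026 without sham replicate 3 and -1.45 without FPI replicate 1. Mndal stood at 3.36, 0.283, 2.51, 0 and 0.194 CPM in sham microglia and at 3.52, 1.24, 2.00, 0 and 0 CPM in FPI microglia. In both genes replicates 4 and 5 were below replicates 1 to 3, although sham replicate 2 of Mndal, at 0.283 CPM, lay close to sham replicate 5, at 0.194 CPM. The log2 fold change of Mndal was 0.11 (SE 1.10, adjusted p 0.987), with 3 of 5 FPI libraries above the sham median. Its sign was unsettled: the value was -0.17, -0.22 and -0.16 without sham replicates 2, 4 and 5, and -0.61 and -0.074 without FPI replicates 1 and 3.

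Ifi205, whose protein is reported to control transcription of the gene for ASC, did not pass the filter on low counts. It had 3, 1, 0, 0 and 0 counts in sham microglia and 21, 5, 3, 0 and 25 counts in FPI microglia. By CPM, 3 of the 5 FPI libraries were above every sham library and FPI replicate 4 had none of these reads. When the filter was loosened to 1 count in total, Ifi205 was not called, at 3.70 on the log2 scale (SE 1.47, adjusted p 0.286). Outside the members, Ifi208 was the gene of the cluster that passed the filter in microglia, at 0.83 on the log2 scale (SE 0.69, adjusted p 0.761), with 2 of 5 FPI libraries above the sham median. Among the genes within 500 kb, Fmn2 passed it, at -1.61 (SE 0.81, adjusted p 0.476), with 0 of 5 FPI libraries above the sham median.

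**Figure D3:**
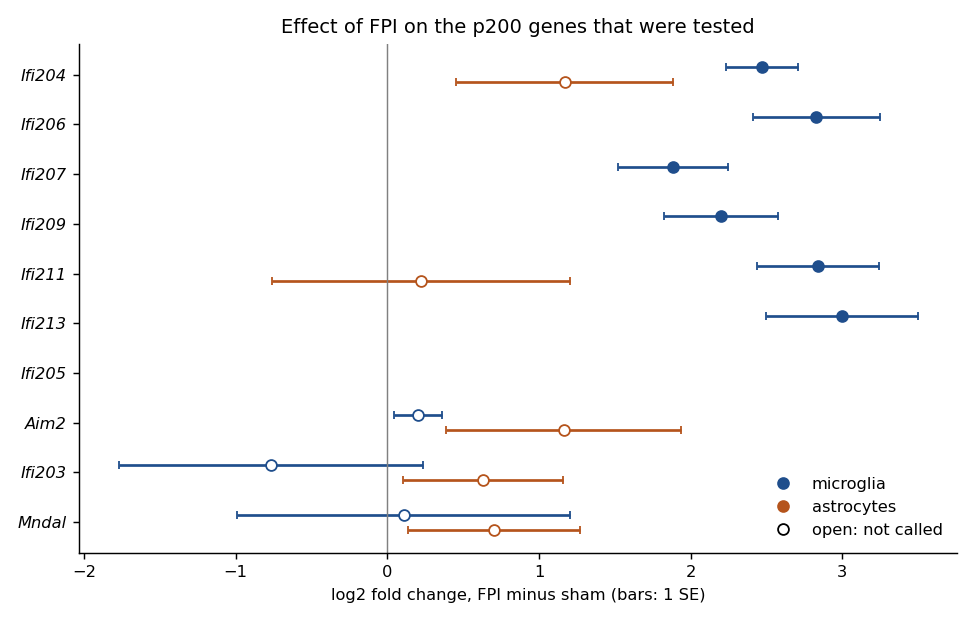
Log2 fold change of FPI over sham (points) with 1 SE (bars) for the members that passed the filter in microglia (blue) and astrocytes (orange); filled points were called and open ones were not. The 6 called members lie between 1.89 and 3.00 in microglia, with Aim2 at 0.20.

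The split by name series was then tested as a term in a fit of the 10 microglia libraries with condition, a comparison added after the counts of Ifi203 and Mndal were seen. Of 13851 genes 74 were called, 14 higher and 60 lower in the J-A libraries, and 0.433% of the tested genes were called lower. For these 2 genes it restates the pattern that prompted it, so their p-values are no independent test. Neither gene passed the filter within the J-A libraries alone, so the filter and the difference rest on the same counts. The log2 difference of Ifi203 was -5.11 (SE 0.95, adjusted p 0.00915), with all 4 J-A libraries below all 6 M libraries and at most 2 counts in any of them. It was -6.36 without FPI microglia replicate 4. For Mndal the difference was -5.35 (SE 1.44, adjusted p 0.159), with a single count over the 4 J-A libraries, in sham microglia replicate 5. Without that library the fitted value was -7.24, with 0 counts left in the series. For Ifi207 the difference was -1.002 (SE 0.29, adjusted p 0.237) and not called, while it was called without FPI microglia replicate 3, at -1.19, and without FPI microglia replicate 5, at -1.27.

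The summed level of 12 monocyte and macrophage markers also differed by name series. In 6 of the 12 every M library was above every J-A library, beside 150 of the 13851 genes. The sum was 483, 299 and 469 CPM in the M sham libraries, and 27.4 and 23.9 CPM in the J-A sham libraries. In FPI microglia it was 285, 213 and 156 CPM in the M libraries, and 24.6 and 71.1 CPM in the J-A libraries. In this sum every M library was above every J-A library, whatever the injury. The most abundant of the markers was Mrc1, at 152 ± 131 CPM in sham and 91.6 ± 67.3 CPM in FPI microglia, and Ly6c2 was at 0 in all microglia libraries. Of the 8 of these markers that were tested, 0 were called between FPI and sham microglia (1 at an unadjusted p under 0.05, 0 by DESeq2), and their median log2 fold change was -0.72. The sort took cells with intermediate CD45, and how many cells bearing these markers passed it is not known. The part of such cells in the levels of Ifi203 and Mndal was not tested.

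**Figure D4:**
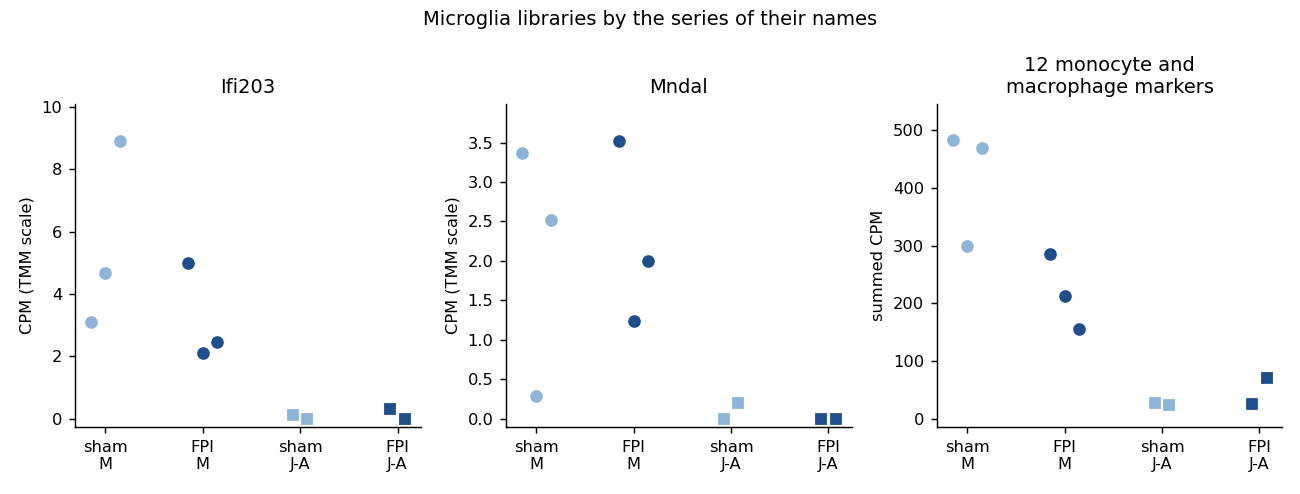
CPM of Ifi203 and Mndal and summed CPM of 12 monocyte and macrophage markers in the 10 microglia libraries (points), by condition and by the suffix of the library name. In all 3 panels every J-A library stands below every M library, with marker sums of 23.9 to 71.1 CPM against 156 to 483 CPM.

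Levels of different genes were compared per kb of merged exons. In sham microglia Aim2 was highest at 19.1 ± 4.23 CPM per kb, above Ifi204 at 5.73 ± 1.88 with no overlap between their 5 libraries. Then came Ifi207 at 3.37, Ifi209 at 2.53, Ifi211 at 1.26, Ifi206 at 0.806, Ifi203 at 0.501, Mndal at 0.350, Ifi213 at 0.307 and Ifi205 at 0.0220 CPM per kb. Of the 9 pairs of neighbours in this order 8 overlapped in range, so that the order below Aim2 is not resolved step by step. In FPI microglia Ifi204 was highest at 31.6 ± 8.53 CPM per kb, followed by Aim2 at 21.9 ± 2.95, and the libraries of these genes overlapped. Ifi207 at 12.6, Ifi209 at 11.8, Ifi211 at 9.10, Ifi206 at 5.77 and Ifi213 at 2.54 CPM per kb came next, and Mndal at 0.373, Ifi205 at 0.330 and Ifi203 at 0.295 CPM per kb were last. All 9 neighbours overlapped on this measure. Per kb of the longest transcript, Ifi204 in FPI microglia was at 49.0 CPM per kb (35.6 to 64.2). Aim2 was at 27.0 (21.9 to 31.5), without overlap between the 2 genes. On that measure Ifi213 was at 5.62 CPM per kb in FPI microglia, and Ifi204 was at 8.88 in sham microglia.

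The make-up of the family's signal changed accordingly. Aim2 gave 56.6 ± 12.2% of the summed CPM of the 10 members in sham microglia and 24.3 ± 6.35% in FPI microglia, without overlap between the groups. Ifi204 rose from 16.7 ± 3.76% to 34.1 ± 3.38% of the sum, also without overlap. If each shared read was counted once, a sum over the 10 members does not depend on how reads were split among them. Whether such reads were counted once, at each place or not at all is not stated. The sum also depends on reads shared with genes outside it, such as Ifi214, Ifi208 and Ifi203-ps. It was 128, 88.8, 136, 127 and 116 CPM in sham microglia and 443, 319, 270.1, 236 and 381 CPM in FPI microglia. All 5 FPI libraries lay above all 5 sham libraries, and the means, 119 ± 18.6 and 329.7 ± 83.5 CPM, had a ratio of 2.76. Without Aim2 the means were 52.4 ± 19.2 and 253 ± 80.4 CPM, and the ratio was 4.83.

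**Figure D5:**
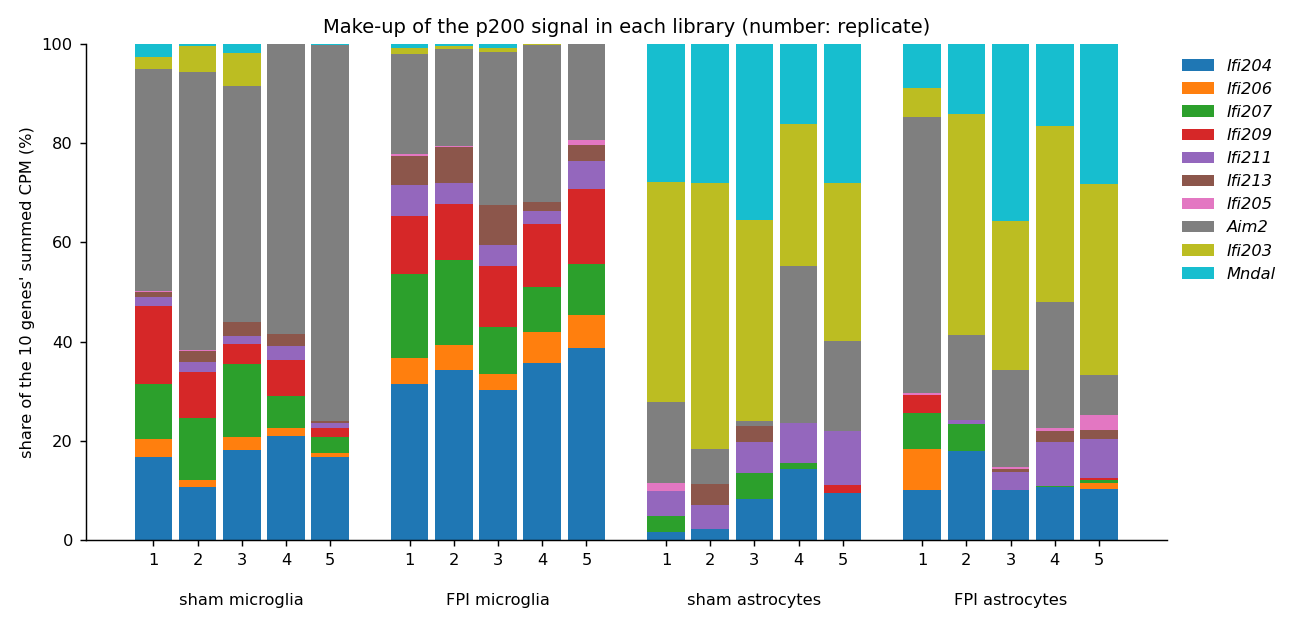
Share of each member in the summed CPM of the 10 members, in percent, for each of the 5 libraries of each group. Aim2 (grey) makes up 44.6% to 75.8% in sham microglia and 19.4% to 31.8% in FPI microglia, and Ifi203 and Mndal together lead in sham astrocytes.

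In astrocytes the same comparison covered 13741 genes, of which 5 were members. In total 1 gene was called, which is 0.00728% of those tested, and its number ran from 0 to 3 when single libraries were left out. DESeq2 gave 23 calls, 11 arose with the replicate number as a block, and 53 arose when both cell types shared 1 fit. Of the 5 tested members 0 were called by edgeR, 0 had an unadjusted p under 0.05 and 0 were called by DESeq2. All 5 had a log2 fold change above 0, and their median was 0.71 beside -0.0052 over all tested genes. In 0 of the members were all 5 FPI libraries above all 5 sham libraries, beside 0.488% of all tested genes. Replicates scattered more in astrocytes, with a common biological coefficient of variation of 0.391 against 0.324 in microglia.

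Ifi204 stood at 0.130, 0.336, 0.830, 3.72 and 2.89 CPM in sham astrocytes and at 2.53, 2.90, 3.54, 3.49 and 5.46 CPM in FPI astrocytes. The FPI libraries were alike, and the sham libraries fell into 3 low and 2 that reached the FPI level. The log2 fold change of Ifi204 was 1.17 (SE 0.71, adjusted p 0.999), with 5 of 5 FPI libraries above the sham median. Aim2 stood at 1.30, 1.09, 0.104, 8.24 and 5.53 CPM in sham astrocytes and at 14.0, 2.77, 6.83, 8.37 and 4.34 CPM in FPI astrocytes. Here too sham replicates 4 and 5 were the high ones, and the groups overlapped. The log2 fold change of Aim2 was 1.16 (SE 0.78, adjusted p 0.999), with 5 of 5 FPI libraries above the sham median. Without sham astrocyte replicate 4 the log2 fold changes were 1.78 for Ifi204 and 1.87 for Aim2. With the replicate number as a block they were 1.76 and 1.62, and neither gene was called.

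Microglia markers in the astrocyte libraries were higher in FPI on average, as were these values, while among the sham libraries the order differed. The 11 markers summed to 179, 139.7, 104, 125 and 111 CPM in sham astrocytes and to 273, 230.5, 144, 129 and 236 CPM in FPI astrocytes. The most abundant was Sall1, at 90.3 ± 17.9 CPM in sham and 95.1 ± 28.8 CPM in FPI astrocytes. Cx3cr1 was at 0.744 ± 0.563 CPM in sham and 7.82 ± 4.46 CPM in FPI astrocytes, and no marker was at 0 in all libraries of a group. Of the 9 markers tested in astrocytes 0 were called by edgeR, 6 had an unadjusted p under 0.05, 5 were called by DESeq2, and their median log2 fold change was 2.96. Over all 13741 genes tested in astrocytes, 319 had an unadjusted p under 0.05 by edgeR and 23 were called by DESeq2. The 7 markers of oligodendrocyte precursors also differed, with replicates 4 and 5 the highest of each group, at sums of 549, 395, 321, 1019 and 896 CPM in sham astrocytes and 567, 706, 559, 1111 and 1484 CPM in FPI astrocytes. The most abundant of these was Cspg4, at 280.1 ± 176 CPM in sham and 368 ± 295 CPM in FPI astrocytes, and none was at 0 in all libraries. Of these 7 markers, 0 were called between FPI and sham astrocytes, 3 had an unadjusted p under 0.05, 0 were called by DESeq2, and their median log2 fold change was 0.39. The astrocyte markers were lowest in replicate 4 of each group, at 10408 and 12151 CPM. The part of all these marker sets in the Ifi204 and Aim2 values of astrocytes was not tested. In the other direction, 9 astrocyte markers summed to 318 ± 54.4 CPM in sham and 449 ± 163 CPM in FPI microglia. Of these 9 markers 1 was called, by edgeR and by DESeq2, 5 had an unadjusted p under 0.05, and their median log2 fold change was 0.63. Over all 12143 genes tested in microglia, edgeR called 285 and gave 1377 an unadjusted p under 0.05. Of the oligodendrocyte markers 1 of 5 tested was called in microglia, and of the precursor markers 1 of 3, with the same counts by DESeq2. The part of these markers in the microglia values was not tested.

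Ifi203 and Mndal had the largest mean shares of the signal in sham astrocytes, 39.8 ± 9.98% and 27.1 ± 6.90% of the summed CPM, although Aim2 led in replicate 4 at 31.7%. Ifi203 stood at 3.51, 8.31, 4.04, 7.44 and 9.68 CPM in sham astrocytes and at 1.47, 7.18, 10.5, 11.6 and 20.6 CPM in FPI astrocytes. Mndal stood at 2.21, 4.36, 3.53, 4.22 and 8.55 CPM in sham astrocytes and at 2.21, 2.27, 12.4, 5.46 and 15.1 CPM in FPI astrocytes. In both genes FPI replicate 5 was the highest library and FPI replicate 1 the lowest FPI library, and the groups overlapped. The 5 endothelial markers summed to 19.6, 338, 99.9, 174 and 370 CPM in sham astrocytes. In FPI astrocytes the sum was 66.7, 192, 298, 190 and 301 CPM. It gave the sham libraries the same order as both genes, and its lowest and highest FPI libraries were the same. Of these markers 0 were called between FPI and sham astrocytes, with a median log2 fold change of 0.063. The part of these markers in the levels of Ifi203 and Mndal was not tested. The log2 fold changes of Ifi203 and Mndal were 0.63 (SE 0.53) and 0.71 (SE 0.57), each with an adjusted p of 0.999 and 3 of 5 FPI libraries above the sham median. Without FPI astrocyte replicate 5 they were 0.20 and 0.28, and with the replicate number as a block they were 0.41 and 0.45. The remaining tested member, Ifi211, changed by 0.22 on the log2 scale (SE 0.98, adjusted p 0.999), with 3 of 5 FPI libraries above the sham median. Its sign was the opposite without sham astrocyte replicate 1 (-0.023), FPI astrocyte replicate 4 (-0.085) or FPI astrocyte replicate 5 (-0.42). It was also negative, at -0.25, with the replicate number as a block.

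The members left untested in astrocytes were near the floor of the counts. Ifi206 had 0 counts in all 5 sham astrocyte libraries and 20, 0, 0, 0 and 4 counts in FPI astrocytes. Ifi207 stayed at or under 17 counts, Ifi209 at or under 9, Ifi213 at or under 8 and Ifi205 at or under 10 in any astrocyte library. Per kb, the order in sham astrocytes began with Mndal at 1.26, Ifi203 at 0.983, Aim2 at 0.929, Ifi211 at 0.801 and Ifi204 at 0.444 CPM per kb. In FPI astrocytes it began with Aim2 at 2.07, Mndal at 2.07, Ifi203 at 1.53, Ifi204 at 1.01 and Ifi211 at 0.944 CPM per kb. Per kb of the longest transcript that order began with Mndal at 3.70, Ifi203 at 2.73 and Aim2 at 2.56 CPM per kb. All neighbours overlapped in both orders. Of the other genes of the region, Cadm3 (0.37), Ifi203-ps (1.02) and Fmn2 (-0.18) were tested in astrocytes for a log2 fold change, and none was called. The sum over the family was 7.92, 15.5, 9.95, 26.0 and 30.4 CPM in sham astrocytes and 25.2, 16.1, 34.9, 32.9 and 53.5 CPM in FPI astrocytes, overlapping, with a ratio of means of 1.81.

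Whether the FPI effect differed between the cell types was tested directly, as the microglia effect minus the astrocyte effect in a fit of all 20 libraries. Of 15077 genes, 0.199% had an adjusted p below 0.1, which is 30 genes, or 48 without FPI astrocyte replicate 3. The count was 191 with DESeq2, and for the 3 animals with both cell types it was 69 without their astrocyte libraries and 8 without their microglia libraries. Of the 9 members tested 0 passed, 1 had an unadjusted p under 0.05, and DESeq2 found 0. That member was Ifi211, with a difference of 2.61 on the log2 scale (SE 1.06) and an adjusted p of 0.606, or 1.31 without the astrocyte libraries of those 3 animals. The difference for Ifi204 was 1.30 (SE 0.66, adjusted p 0.730), with a log2 fold change of 2.47 in microglia and 1.17 in astrocytes. For Aim2 it was -0.96 (SE 0.73, adjusted p 0.902). Without sham astrocyte replicate 4 these differences were 0.66 for Ifi204 and -1.71 for Aim2. Without the astrocyte libraries of the 3 animals with both cell types Aim2 passed, at -2.94 (adjusted p 0.0642), and Ifi204 was at -0.48. That fit leaves out sham astrocyte replicates 4 and 5, the highest sham astrocyte libraries of both genes. Aim2 stood at 8.24 and 5.53 CPM in them, and Ifi204 at 3.72 and 2.89 CPM. The calls in microglia alone therefore do not show that these genes responded differently in astrocytes.

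Sham microglia were compared with sham astrocytes in the same fit, to place the members by cell type without injury. Of 15077 genes 25.3% were called higher and 35.6% lower in microglia. Of the 9 tested members 6 were called higher in microglia and 1 lower. Among the 6, Ifi206, Ifi207, Ifi209 and Ifi213 were near the floor in astrocytes and passed the filter through their microglia counts, so for these 4 the filter and the call rest on the same counts. Aim2 was higher by 4.32 on the log2 scale (SE 0.58, adjusted p 1.28e-06), Ifi204 by 3.65 (SE 0.49, adjusted p 1.37e-06) and Ifi207 by 5.63 (SE 0.75, adjusted p 1.34e-06). For each of these genes all 5 sham microglia libraries lay above all 5 sham astrocyte libraries. Without sham astrocyte replicate 4 the values were 5.10 for Aim2 and 4.32 for Ifi204, and without sham astrocyte replicate 3 the value for Ifi207 was 6.29. Ifi209 was higher by 6.44 (SE 0.89, adjusted p 1.96e-06), with its only 4 counts of the sham astrocyte group in replicate 5. Without that library the sham astrocytes were at 0 counts, and the fitted 9.28 has no count behind it on that side. Ifi213 was higher by 3.18 (SE 0.91, adjusted p 0.00462), or 4.45 without sham astrocyte replicate 2, with 4 of 5 sham microglia libraries above every sham astrocyte library.

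Ifi206, at 0 in sham astrocytes, was called higher in microglia in 5 of 5 libraries. Against a floor of 3 counts over the sham astrocyte group, or 0.0636 CPM, its mean of 2.46 ± 1.59 CPM was at least 38.7-fold higher, a bound that covers counting error only. Mndal was called lower in microglia, with a log2 difference of -1.89 (SE 0.98, adjusted p 0.0983) and 3 of 5 sham microglia libraries below every sham astrocyte library. This call was lost in 13 of 20 fits that left out 1 library: sham microglia replicates 2, 4 and 5, FPI microglia replicates 2 and 3, sham astrocyte replicates 2 to 5, and FPI astrocyte replicates 2 to 5. Its adjusted p ran from 0.0456 to 0.226 over all 20 of them, and the difference from -2.57 to -1.48. Without the J-A microglia libraries it was -1.24 and not called (adjusted p 0.185). The 5 endothelial markers summed to 200 ± 151 CPM in sham astrocytes and 64.6 ± 9.37 CPM in sham microglia. Their part in the Mndal difference was not tested. Ifi203 (-0.98, SE 0.89, adjusted p 0.351) and Ifi211 (0.63, SE 0.75, adjusted p 0.482) were not called. For the 3 animals with both types, Ifi211 was called without their astrocyte libraries, at 1.87 (adjusted p 0.0927), and Ifi203 without their microglia libraries, at -2.56 (adjusted p 0.0508). The first fit leaves out sham astrocyte replicates 4 and 5, the highest in Ifi211 at 2.11 and 3.27 CPM. The second leaves out sham microglia replicates 2 and 3, the highest in Ifi203 at 4.67 and 8.91 CPM. It keeps replicate 1, at 3.10 CPM, and the J-A libraries, at 0.112 and 0 CPM. Without sham microglia replicate 3 Ifi203 was at -1.67, and without sham astrocyte replicate 5 Ifi211 was at 1.21. Ifi203 overlapped between the cell types, and so did Ifi211.

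The 3 animals with both cell types were also compared within an animal, on single libraries and without a test. In the FPI animal 8 members were higher in its microglia library and 2, Ifi203 and Mndal, in its astrocyte library, beside 44.9% and 54.6% of all 15077 genes. In the sham animal of microglia replicate 2 the counts were 7 and 3, beside 45.4% and 54.4%, and in that of microglia replicate 3 they were 6 and 3, beside 47.4% and 52.5%, with Ifi205 at 0 in both libraries. In each of these sham animals Ifi203, Mndal and Ifi211 were the 3 members higher in astrocytes, Ifi203 at 8.91 against 9.68 CPM in the animal of microglia replicate 3.

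The genes that act with AIM2 were looked at as a list of 14 inflammasome genes, of which 12 were tested in microglia. Of these, 0 were called by edgeR, beside 2.13% of all tested genes called higher, 0 had an unadjusted p under 0.05 and 0 were called by DESeq2, and their median log2 fold change was -0.062. Pycard, which encodes the adaptor ASC, changed by a log2 fold change of 0.12 (SE 0.15), and Casp1 by 0.12 (SE 0.24). The cytokine gene Il1b changed by 1.05 (SE 0.57, adjusted p 0.529), with 3 of 5 FPI libraries above the sham median, and Il18 by -0.49 (SE 0.41, adjusted p 0.763), with 0 of 5 above it. Nlrp3, another sensor, stood at -0.054 (SE 0.12) and the pore-forming Gsdmd at -0.071 (SE 0.13). In astrocytes 4 of the 14 were tested, with 0 called, 1 at an unadjusted p under 0.05, 0 by DESeq2 and a median of 0.12. Between sham microglia and sham astrocytes 11 of the 12 tested were called higher in microglia and 1 lower, beside 25.3% and 35.6% of all tested genes. Apart from the 4 genes tested in astrocytes, these genes passed the filter through their microglia counts. For them the filter and the call rest on the same counts.

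Of 16 genes of DNA sensing by other routes, 15 were tested in microglia and 2 were called, both higher, beside 2.13% of all tested genes called higher, with a median log2 fold change of 0.11. Zbp1, a sensor of nucleic acids in the Z form, rose by 2.57 on the log2 scale (SE 0.50, adjusted p 0.0071, higher in 5 of 5 FPI libraries). Enpp1, which breaks down the second messenger cGAMP outside cells, rose by 1.06 (SE 0.23, adjusted p 0.0164, higher in 5 of 5 FPI libraries). The sensor Cgas changed by 0.17 (SE 0.21, adjusted p 0.857, 3 of 5 FPI libraries above the sham median), and Tmem173, which encodes STING, by -0.12 (SE 0.15, adjusted p 0.860, 2 of 5). In astrocytes 13 were tested, with 0 called, 0 at an unadjusted p under 0.05, 0 by DESeq2 and a median of 0.052.

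Of 19 genes of interferon signalling, 16 were tested in microglia and 4 were called, all higher, beside the same 2.13% of all tested genes, with a median log2 fold change of 0.18. They included the transcription factor genes Irf7 (2.85, SE 0.34) and Stat2 (1.00, SE 0.14) and the gene of the feedback inhibitor Usp18 (2.47, SE 0.29), each higher in 5 of 5 FPI libraries. The receptor genes Ifnar1 (0.13, SE 0.13) and Ifnar2 (0.13, SE 0.13) were not called, and Ifnb1, Ifna4 and Ifng did not pass the filter. In astrocytes the 16 genes gave 0 calls by edgeR, 6 at an unadjusted p under 0.05, 1 by DESeq2 and a median of 0.17. Over all 13741 genes tested in astrocytes, 319 had an unadjusted p under 0.05 by edgeR and 23 were called by DESeq2. There Irf7 stood at 2.15 on the log2 scale (SE 0.66, adjusted p 0.999) and Usp18 at 2.19 (SE 0.57, adjusted p 0.999), each with 5 of 5 FPI libraries above the sham median.

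A reference list of 38 interferon-stimulated genes outside the cluster was tested in full in microglia. Like the lists above, it was chosen with earlier results of these data known, so its calls are no independent test. Of these 38 genes 30 were called, all higher (2.13% of all tested genes were), with a median log2 fold change of 1.66 beside -0.0094 over all tested genes. The 5 with the smallest p were Lgals3bp (1.94, SE 0.20), Oasl2 (3.00, SE 0.33), Ifit2 (2.63, SE 0.29), Ifit3 (2.46, SE 0.29) and Oas2 (2.67, SE 0.33). In each of them all 5 FPI libraries were above all 5 sham libraries. In astrocytes 31 were tested, with 0 called by edgeR, 17 at an unadjusted p under 0.05, 5 by DESeq2 and a median of 0.89. Over all 13741 genes tested in astrocytes, 319 had an unadjusted p under 0.05 by edgeR and 23 were called by DESeq2.

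The genes most like Ifi204 over the 10 microglia libraries were sought among the other 12142 tested genes. Likeness was the root mean square difference of log2 CPM, with 1 CPM added and each gene centred on its own mean. The 5 closest genes outside the cluster were Oas2 (0.239), Ifit2 (0.256), Axl (0.275), Oasl2 (0.302) and Rsad2 (0.309), beside a median of 1.35 over all genes. Of the members, Ifi206 ranked 13 (0.410) and Ifi211 ranked 14 (0.418). Ifi209 ranked 72, Ifi207 73 and Ifi213 95. Aim2 ranked 1572 (1.18), nearer than the median gene, while Mndal ranked 9673 and Ifi203 12033, both beyond it.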

How the data were processed

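The counts per gene were deposited by the authors, who converted reads with bcl2fastq, aligned them to GRCm38.p6 with HISAT2 2.1.0 and counted them with featureCounts, whose settings for strand and for reads with several alignments are not stated. Libraries were taken as separate samples, as titled, and not as repeats of the same RNA, although FPI astrocyte replicates 2 and 5 carry the same animal number. Here, genes were filtered with edgeR 4.0.16 (filterByExpr, R 4.3.3), scaled by TMM and fitted by its quasi-likelihood method within each cell type (5 against 5). All 20 libraries in 4 groups were fitted together to compare FPI effects and sham cell types, and p-values were adjusted by Benjamini-Hochberg over all tested genes. The steps were tested on simulated data. Levels per kb use merged exons, and shared windows use GENCODE M21 transcripts. DESeq2 1.42.0, other scalings and filters, robust empirical Bayes, a replicate block, a term for the name series, a stricter threshold and omission of single libraries or of animals with both cell types were tried. Fits within each name series, the test between the series, the count of markers by series, and omission of single libraries or of the J-A libraries from the fit of all 20 were added after seeing the data. The members and the gene lists were chosen with earlier results of these data known. Named genes are all 10 members, tested genes near them, genes of the inflammasome, DNA sensing and interferon signalling lists, the 5 reference interferon-stimulated genes with the smallest p in microglia, and the 5 genes most like Ifi204. Cx3cr1, Sall1, Cspg4, Mrc1 and Ly6c2 are named as markers. Protein sequences were not used here, and the values of some listed genes are not reported.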

Additional observations from a re-analysis of the deposited data

Results flagged for a closer look

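Single libraries far from the other 4 of their group were sought among the levels of the members and the marker sums, in 75 groups of 5, and 5 values stood out, where chance alone gives about 1 in 20 groups. Ifi205 stood at 0.388 CPM in sham microglia replicate 1, with 0.0708 CPM in the next library, and at 0.130 CPM in sham astrocyte replicate 1, with 0 in the others. In FPI astrocyte replicate 5 Ifi205 stood at 1.61 CPM, with 0.233 CPM in the next library. Ifi209 stood at 0.503 CPM in sham astrocyte replicate 5, with 0 in the others. The summed lymphocyte markers stood at 0.482 CPM in FPI astrocyte replicate 5, with 0.122 CPM in the next library. These values rest on 10 counts or fewer. FPI astrocyte replicate 5, which is named like a microglia library, gave 2 of the 5.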

How the results depend on the processing

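The 6 members called in microglia kept their direction under every alternative that tested them, and 6 were called in each of the 10 fits without 1 library. The count of members fell to 3 with at least 10 counts required in every library, since 4 were then tested, and to 1 with all 20 libraries together, where the adjusted p of the other 5 ran from 0.108 to 0.156. In the J-A libraries alone Ifi211 and Ifi213 had an adjusted p of 0.161 and 0.345, and under the other alternatives they ran from 1.13e-09 to 0.119 and from 3.90e-08 to 0.108. Genes called in microglia numbered 121 with all 20 libraries, 99 in the J-A libraries (4 libraries), and 177 to 423 without 1 library. In microglia Mndal ran from -0.61 to 0.84 without 1 library (-0.17, -0.22, -0.16, -0.61 and -0.074 were negative) and was -0.077 with a term for the name series, and Aim2 was -0.11 in the J-A libraries. Genes called in astrocytes numbered 23 with DESeq2, 9 with every gene of at least 1 count, 53 with all 20 libraries, 0 with at least 10 counts, robust empirical Bayes, an adjusted p below 0.05 or FPI replicates 2 and 5 summed, and 0 to 3 without 1 library. With the replicate number as a block they numbered 11, and the log2 fold changes in astrocytes were -0.25 for Ifi211, 1.76 for Ifi204 and 1.62 for Aim2, with 0 members called. Libraries of the same number correlated, after removal of group means, at -0.066 to 0.092 in microglia. In astrocytes they correlated at 0.45, -0.009, 0.245, 0.452 and 0.348 for numbers 1 to 5. The best match had the same number in 2 of 5 cases in microglia and in 3 of 5 in astrocytes. The labels do not say that a number stands for anything shared, and the numbers were not taken as pairs. Values with the block also stand beside the astrocyte results. Without 1 library Ifi211 in astrocytes ran from -0.42 to 0.76 (-0.023, -0.085 and -0.42 were negative). Genes whose FPI effect differed between cell types numbered 191 with DESeq2, 69 when animals with both types lost their astrocyte libraries and 8 when they lost their microglia libraries, and 21 to 48 without 1 library. Those astrocyte libraries include sham replicates 4 and 5, the highest sham astrocyte libraries of Aim2 and Ifi204. Without them 1 member passed, Aim2 at -2.94 (adjusted p 0.0642, and 0.531 to 0.995 without 1 library). The differences for Ifi204 and Ifi209 became -0.48 and -2.36. Without 1 library those differences ran from -1.31 to 0.13 for Mndal, from -0.26 to 1.32 for Ifi207 and from -2.06 to 2.54 for Ifi209. Members differing between the name series numbered 1 to 2 without 1 library. In the sham comparison of cell types no member changed direction, Mndal missed the threshold in 17 fits, and Ifi211 (1.87, those astrocyte libraries omitted) and Ifi203 (-2.56, those microglia libraries omitted) each passed it once. In the fit where Ifi203 passed, the sham microglia were replicate 1 and the J-A libraries, which held at most 1 count of it. Per kb of the longest transcript instead of merged exons, 11 of 40 levels moved by more than 1 SD. Beyond fewer genes or libraries, the cause was not tested. The filter on low counts left 5 members untested in astrocytes and Ifi205 untested in both cell types.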
